A study of Mus musculus with 16 samples.

Results

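Enzalutamide, a drug that blocks the androgen receptor, was added to the androgen dihydrotestosterone (DHT) in cultured mouse neural progenitor cells, and its RNA profile was compared with that of DHT alone. The comparison holds 8 of the 16 libraries of the series, 4 given DHT with enzalutamide (KO DHT+ENZ) and 4 given DHT alone (KO DHT), chosen by their treatment labels and paired by the replicate number that each library carries. Cells of both groups were progenitors from E18.5 mouse embryo cortex that had received a lentivirus encoding Cas9, puromycin resistance and a guide RNA against mouse Chd1. Puromycin was applied for 48 h before the surviving cells were grown up. KO DHT+ENZ cells were given 10 µM enzalutamide for 30 min and then 10 nM DHT for 24 h. KO DHT cells had DMSO for the same 30 min before the DHT. Another knockout group, given DMSO only (KO DMSO, 4 libraries), is used here for reference levels. The remaining 4 libraries came from progenitors with Cas9 and no guide (WT DMSO). They entered the filter, the scaling and the fitted model with its estimate of the spread, but not the comparison itself. Per the labels, each group holds 4 biological replicates from embryos of 2 litters. The litter of each replicate is not named in the labels, nor is any clonal isolation after selection. The labels name no culture with enzalutamide alone and no control culture with DHT, so every difference below is one between DHT with and without the drug in Chd1-targeted cells.

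The androgen receptor is a nuclear receptor that, once bound by DHT, enters the nucleus and activates genes next to its binding sites. Enzalutamide competes with the hormone for the receptor and hinders its nuclear entry and DNA binding. The drug is used against prostate cancer, where blocking the receptor slows the division of tumour cells. CHD1 is a chromatin remodeller of actively transcribed genes. Neural progenitors of the developing cortex divide repeatedly before they give rise to neurons and glia, and genes for chromosome segregation are among the most tightly cell-cycle-bound genes they express.

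Total estimated counts ran from 31.8 M to 36.9 M in the 8 libraries and 98.85% to 99.09% of the counts in each library were assigned to named genes. Levels are given in CPM, the counts per 1 M counts of a library after scaling, except that the marker sums were not scaled. The summed level of 20 progenitor and radial glia markers was 11600 to 12700 CPM in KO DHT and 12000 to 12600 CPM in KO DHT+ENZ. Neuron markers summed to 1000 to 1440 and 1010 to 1460 CPM, and oligodendrocyte lineage markers to 1150 to 1490 and 1160 to 1530 CPM. Microglia markers summed to at most 5.96 CPM, with 3 of the 10 at 0 in all 8 libraries. The 10 astrocyte markers summed to 488 to 588 CPM in KO DHT and 569 to 636 CPM in KO DHT+ENZ. On average 9 of them were above 1 CPM, and Gfap, the defining astrocyte filament gene, was at 0.961 to 1.94 CPM. Apoe, 1 of the 10, averaged 96.7 CPM in KO DHT and 173.9 CPM in KO DHT+ENZ. The median log2 fold change of the 9 astrocyte markers tested was -0.05. Mitochondrial genes held 2.90% to 3.63% of counts in KO DHT and 4.31% to 4.50% in KO DHT+ENZ. Deviations from the group means correlated between libraries with the same replicate number in all 4 pairs, and the number was kept in the model as a block. Some differently numbered libraries correlated more. KO DHT+ENZ replicate 1 was at 0.44 with its own number and 0.78 with KO DHT replicate 4. KO DHT+ENZ replicate 2 was at 0.58 with its own number and 0.67 with KO DHT replicate 3. The first principal component, with 43.6% of the variance, set replicates 1 and 4 of both groups apart from replicates 2 and 3.

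Chd1 itself was measured at 68.5, 77.0, 73.0 and 69.4 CPM in KO DHT replicates 1 to 4 and at 72.9, 59.9, 71.0 and 68.9 CPM in KO DHT+ENZ. The groups overlapped, and with a log2 fold change of -0.08 (SE 0.08) the gene was not called (adjusted p = 0.712, edgeR). The mean in KO DMSO was 67.3 ± 2.68 CPM (SD, n = 4). Scaled for transcript length and depth, the mean of Chd1 was 18.9 transcripts per mega-transcript (TPM) in KO DHT and 16.6 TPM in KO DHT+ENZ. Since a short indel can disable a protein without changing its RNA level, these values do not check the edit.

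Adding enzalutamide to DHT lowered genes of cell division and raised some genes of the lysosome, of lipid export and of the amino acid stress response. Of 16971 genes tested, 591 (3.48%) passed at an adjusted p under 0.05 in edgeR's quasi-likelihood test with the replicate block, with 266 higher (1.57%) and 325 lower (1.92%). The changes were small: the median absolute log2 fold change among the 591 was 0.40, and 9 genes differed by a fold of at least 2. Of the 591, 587 moved the same way in all 4 pairs, and for 316 the 4 libraries of one group did not overlap with the 4 of the other. Over all genes tested, 28.2% moved the same way in all 4 pairs (2383 higher, 2403 lower) and 6.05% had groups that did not overlap. Without the block 45 genes passed (0.265%; 13 higher, 0.0766%, and 32 lower, 0.189%), all of them among the 591. With the block but without WT DMSO replicate 1, the shallowest library, 1480 passed, and with 1 of the 4 pairs left out 88 to 323 passed. Where a transcript length trend in each library was removed, 205 were higher (1.21%) and 404 lower (2.38%).

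The gene lists described below were read against those shares. In 7 lists of cell division, DNA replication and break repair, 114 of 186 tested genes fell and 3 rose, and these 114 made up 35.1% of all lower calls. In 3 lists of the lysosome, its proton pump and its regulators, 27 of 97 tested genes rose and 0 fell, or 10.2% of all higher calls. The spread of single genes within each list is shown in the plot of fold changes by list.

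**Figure D1:**
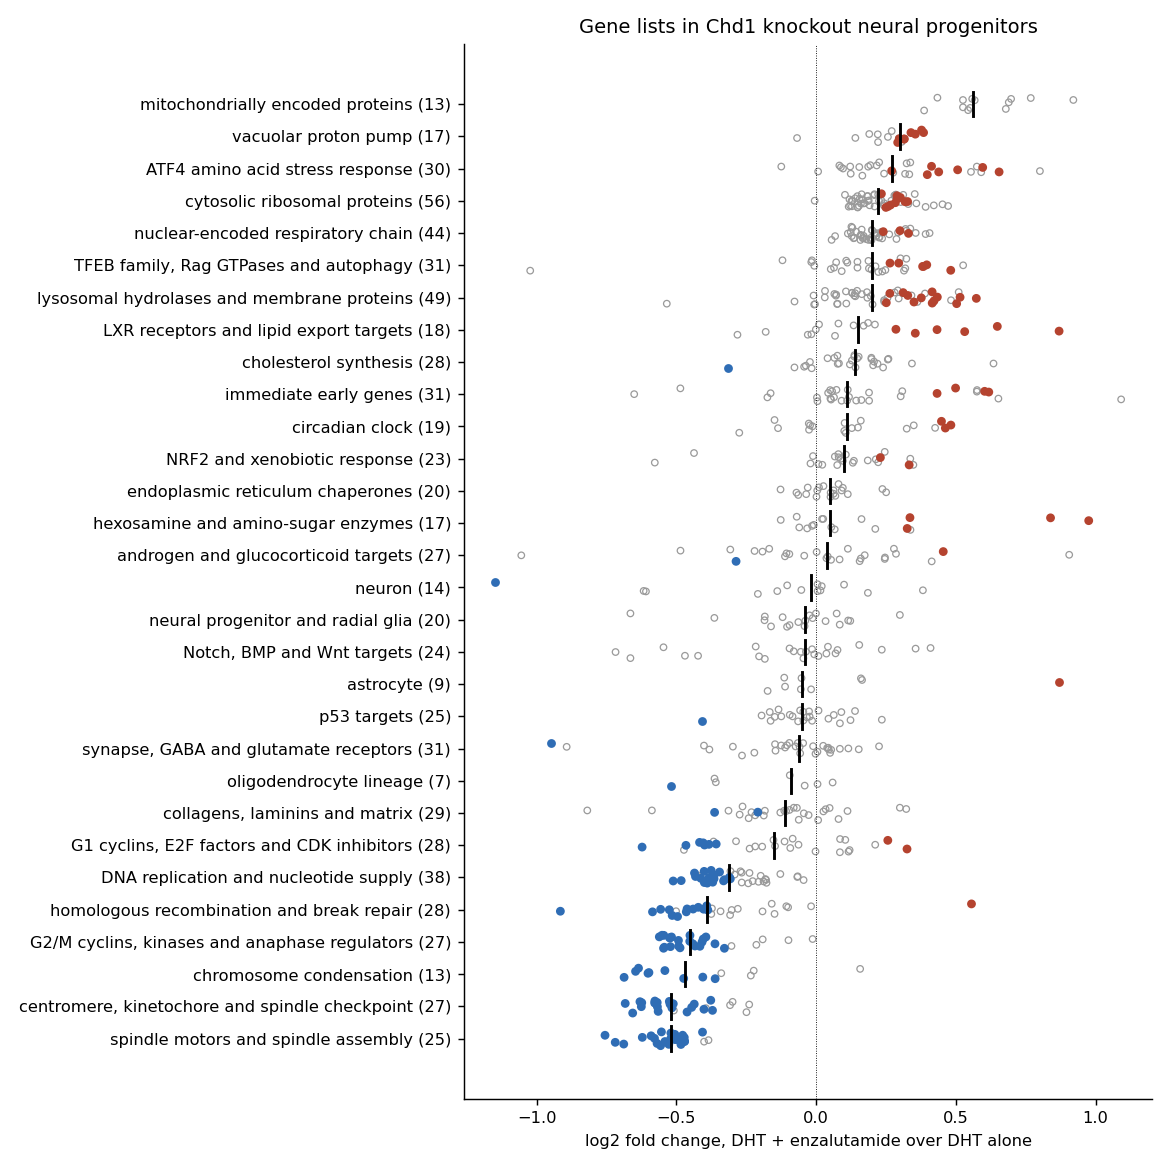
Log2 fold change of each tested gene in KO DHT+ENZ over KO DHT, by gene list with the number tested in brackets. Filled points passed at an adjusted p under 0.05 (red higher, blue lower), open points did not, and black bars are list medians. The 5 lists at the bottom have medians from -0.39 to -0.52, while the median of all genes tested is 0. Lists not drawn include microglia (median -0.47, 4 tested), endothelium (-0.25, 5 tested) and pericyte, meninges and fibroblast markers (0.36, 4 tested), with 0 called in each.

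Spindle motors and spindle assembly factors made up the list with the highest share of lower genes. These proteins slide, bundle and anchor the microtubules that pull chromosomes apart. Of 25 tested genes 23 fell, none rose, and the list's median log2 fold change was -0.52, with pair medians of -0.53, -0.49, -0.52 and -0.51. All 25 were lower in each of the 4 pairs, and for 24 the groups did not overlap. Without the block 11 of the 25 passed. Kif14, a kinesin of the cytokinetic midzone, was at 30.7, 29.3, 32.7 and 31.1 CPM in KO DHT and at between 16 and 20.8 CPM in the 4 libraries of KO DHT+ENZ. Every KO DHT+ENZ library lay below every KO DHT library (log2 fold change -0.76, SE 0.09; adjusted p = 0.000798, edgeR; 0.00752 without the block). Aspm, which focuses spindle poles in cortical progenitors, ran from 77.9 to 91.2 CPM in KO DHT and from 44.0 to 60.9 CPM in KO DHT+ENZ (-0.72, SE 0.10). The kinesins Kif15 (-0.69) and Kif4 (-0.59) and the spindle assembly factors Tpx2 (-0.52), Racgap1 (-0.47) and Spag5 (-0.47) fell as well. The 2 members that did not pass were Kif24 (-0.40) and Kif18a (-0.39). In a bulk sample fewer dividing cells and less of these RNAs per dividing cell cannot be told apart.

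Centromere, kinetochore and spindle checkpoint genes, which tie chromosomes to the spindle and hold the cell until all are attached, fell in 21 of 27 cases with a median of -0.52. None rose, and 26 were lower in all 4 pairs. Without the block 5 of the 27 passed. Cenpf, a kinetochore protein that peaks before mitosis, was at 154, 138, 144 and 149 CPM in KO DHT and at 97.6, 79.8, 89.7 and 98.2 CPM in KO DHT+ENZ. The groups were well apart (-0.68, SE 0.07; adjusted p = 0.000421, edgeR). The centromere motor gene Cenpe fell by 0.66 on the log2 scale (SE 0.09), the centromeric histone gene Cenpa by 0.57 (SE 0.06) and the kinetochore gene Knstrn by 0.57 (SE 0.08). The checkpoint kinase Ttk went from 29.3 to 35.1 CPM in KO DHT down to 18.7 to 22.9 CPM (-0.63, SE 0.10).

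G2/M cyclins, kinases and anaphase regulators drive entry into mitosis and exit from it. Of 27 tested genes 22 fell, with a median of -0.45, but without the block 0 of them passed, with the same median of -0.45. Ccnb1, the cyclin that activates CDK1 for mitosis, was at 148, 165, 186 and 136 CPM in KO DHT and at 98.8, 110, 131 and 93.6 CPM in KO DHT+ENZ. The highest KO DHT+ENZ library, replicate 3, lay just below the lowest KO DHT library, replicate 4, while within each pair the drop was similar (-0.55, SE 0.07; adjusted p = 0.000699, edgeR; 0.081 without the block). Birc5, the survivin subunit of the chromosomal passenger complex, fell by 0.52 on the log2 scale with overlapping groups, and so did the spindle pole kinase gene Aurka, by 0.49. Ccnb2, another B-type cyclin, fell by 0.52 with groups apart. Pttg1, the securin gene whose product holds separase inactive, stayed at 21.1 to 27.9 CPM in KO DHT and 20.9 to 29.3 CPM in KO DHT+ENZ and did not pass (-0.01; adjusted p = 0.98, edgeR).

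Chromosome condensation genes fell in 9 of 13 cases, with a median of -0.47, and 5 passed without the block. Mki67 encodes Ki-67, which coats mitotic chromosomes and marks proliferating cells. It was at 350, 379, 432 and 384 CPM in KO DHT and at 248, 219, 247 and 247 CPM in KO DHT+ENZ. Each of the 4 pairs showed a drop, with log2 differences of -0.50, -0.79, -0.81 and -0.64 (fitted -0.69, SE 0.08; adjusted p = 0.000563, edgeR; 0.00752 without the block). Top2a, the topoisomerase that untangles chromosomes, went from 549, 522, 631 and 505 CPM to 343, 353, 399 and 325 CPM (-0.64, SE 0.07). Cdca2 (-0.65) and the condensin subunit gene Ncapd2 (-0.60) fell by similar amounts. The mean levels of Mki67 and Top2a in KO DMSO, 357 and 518 CPM, lay with those of KO DHT.

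The promoters of the lower genes held 2 elements known from cell-cycle genes more often than those of all genes tested. These are the CCAAT box, bound by NF-Y, and the cell cycle genes homology region (TTTGAA or TTTAAA), through which the DREAM and MuvB complexes repress genes in resting cells and FOXM1 and B-MYB act in G2. Both strands of RefSeq promoters (GRCm38.p6, 250 bases before to 50 after each start) were searched for each motif, and a gene can have several promoter entries. TTTGAA was in 35.1% of 302 entries of lower genes, in 10.1% of 268 entries of higher genes and in 12.7% of 15419 entries of all genes tested. TTTAAA was in 14.6%, 10.1% and 9.6%. CCAAT was in 58.9%, 36.6% and 37.7%. A match is a description of letters, not a bound site, and these shares were given no test. The 200 bases upstream of the starts of Kif14 (chr1:136467648-136467847, plus strand), Ccnb1 (chr13:100786487-100786686, minus strand) and Mki67 (chr7:135716380-135716579, minus strand) show the arrangement. The 3 were picked after the matches were seen, from genes with a promoter entry, and capitals mark CCAAT (or ATTGG, the same box on the other strand), TTTGAA and TTTAAA.
Kif14: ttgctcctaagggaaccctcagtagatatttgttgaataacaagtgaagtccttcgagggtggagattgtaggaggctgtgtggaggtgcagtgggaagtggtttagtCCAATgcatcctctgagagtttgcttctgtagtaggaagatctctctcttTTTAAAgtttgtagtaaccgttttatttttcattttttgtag
Ccnb1: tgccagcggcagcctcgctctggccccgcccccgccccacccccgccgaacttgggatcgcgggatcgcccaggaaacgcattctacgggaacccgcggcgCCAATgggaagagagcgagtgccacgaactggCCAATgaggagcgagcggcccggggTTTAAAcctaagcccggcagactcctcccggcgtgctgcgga
Mki67: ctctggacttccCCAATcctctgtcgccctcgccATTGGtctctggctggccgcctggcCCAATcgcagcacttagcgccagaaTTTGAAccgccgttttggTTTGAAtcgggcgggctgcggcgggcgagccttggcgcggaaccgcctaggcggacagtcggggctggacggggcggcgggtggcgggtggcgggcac
In Kif14 the CCAAT box starts 92 bases before the transcription start and TTTAAA 42 bases before it. In Ccnb1, 2 boxes start at 99 and 67 bases and TTTAAA at 42 bases before the start. Mki67 has 3 boxes between 188 and 141 bases and TTTGAA at 116 and 98 bases before the start.

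DNA replication and nucleotide supply genes moved less. Of 38 tested genes 18 fell and none rose, with a median of -0.31 and pair medians of -0.39, -0.25, -0.29 and -0.30. Although 35 of the 38 were lower in all 4 pairs, only 2 had groups that did not overlap, and 1 passed without the block. Clspn, the checkpoint adaptor claspin, went from 57.7, 75.9, 81.3 and 52.5 CPM to 39.2, 51.4, 57.4 and 39.3 CPM (-0.51, SE 0.07; adjusted p = 0.00185, edgeR; 0.277 without the block). Its levels were lower in replicates 1 and 4 than in 2 and 3 in both groups, so the groups overlapped while each pair fell. The ribonucleotide reductase genes Rrm1 and Rrm2 fell by 0.37 each on the log2 scale, and the polymerase alpha gene Pola1 by 0.40. The replication clamp gene Pcna (-0.21) and the helicase gene Mcm2 (-0.18) did not pass.

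Homologous recombination and break repair genes fell in 14 of 28 cases, with a median of -0.39. Pif1, a DNA helicase, had the largest fall among them, from 17.0, 13.5, 16.6 and 14.0 CPM to 9.79, 7.51, 8.02 and 7.14 CPM. All 4 KO DHT+ENZ libraries lay below the KO DHT libraries (-0.92, SE 0.13; adjusted p = 0.00207, edgeR; 0.0298 without the block). The Fanconi anaemia genes Fanci (-0.56) and Fancd2 (-0.50) fell too. Without the block 3 of the 14 falls passed. Parp3, a poly(ADP-ribose) polymerase of break repair named after its value was seen, was the only member that rose (0.56, SE 0.11). Among G1 cyclins, E2F factors and CDK inhibitors, 7 of 28 fell and 2 rose, with a median of -0.15. The falls included the transcription factor genes E2f7 (-0.62, SE 0.09) and Foxm1 (-0.47, SE 0.09), the pocket protein gene Rbl1 (-0.38) and the S-phase cyclin gene Ccne1 (-0.36). Without the block 1 of the 7, E2f7, passed, while Foxm1, Rbl1 and Ccne1 were at an adjusted p of 0.0611, 0.133 and 0.967 in edgeR. The rises were the CDK4/6 inhibitor gene Cdkn2b (0.33, SE 0.07) and its neighbour Cdkn2a (0.26, SE 0.07), both named after their values were seen and neither past the threshold without the block (adjusted p = 0.834 and 0.908, edgeR). Cdkn1a, the p53 target that encodes the CDK inhibitor p21, was at 607 to 710 CPM in KO DHT and 667 to 737 CPM in KO DHT+ENZ and did not pass (0.09; adjusted p = 0.447, edgeR). Of 25 p53 targets 1 fell and none rose, with a median of -0.05. The member that fell was Gtse1 (-0.41), a microtubule-binding inhibitor of p53 that peaks in G2 and also stands in the G2/M list (0.122 as adjusted p without the block in edgeR).

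Outside the division lists, the largest fall among called genes that averaged at least 5 CPM belonged to Magt1, which encodes a magnesium transporter and oxidoreductase of the oligosaccharyltransferase complex. It was at 79.6, 54.8, 77.4 and 71.9 CPM in KO DHT and at 26.3, 27.0, 34.3 and 52.6 CPM in KO DHT+ENZ. Replicate 4 of KO DHT+ENZ lay just under the lowest KO DHT library and the other 3 far below (-1.03, SE 0.17; adjusted p = 0.00516, edgeR; 0.139 without the block and 0.0623 without replicate 3). In KO DMSO Magt1 was at 40.6 ± 7.70 CPM, nearer to KO DHT+ENZ than to KO DHT; KO DHT over KO DMSO was 0.81 on the log2 scale and did not pass (adjusted p = 0.606, edgeR). The other named falls were Rcn3, a calcium-binding protein of the secretory pathway (-0.77, SE 0.15; 0.726 as adjusted p without the block), and Mdga1, an adhesion molecule of the neuronal surface (-0.70, SE 0.13).

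**Figure D2:**
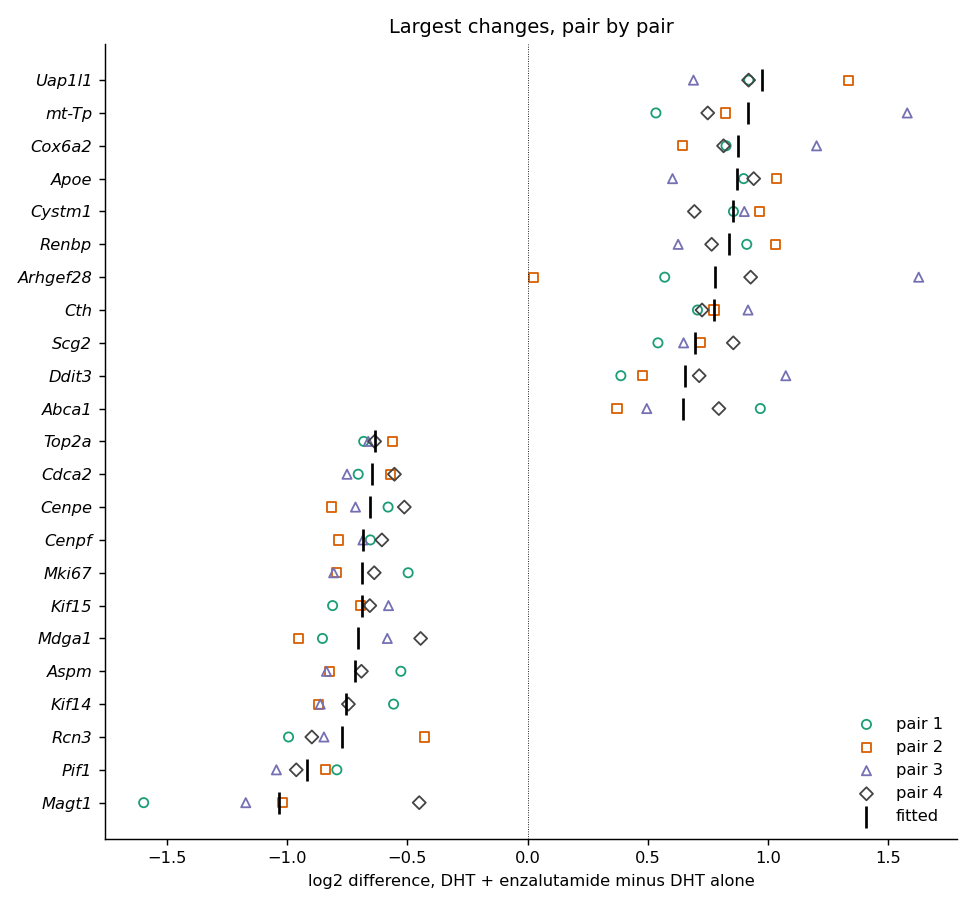
Log2 difference of KO DHT+ENZ minus KO DHT in each of the 4 pairs (symbols) and the fitted log2 fold change (vertical bar) for 11 of the 12 largest rises and the 12 largest falls. All symbols lie on the side of the fitted value; the pairs of Top2a and Cdca2 lie close together, while those of Arhgef28, mt-Tp and Magt1 are spread.

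Lysosomal hydrolases and membrane proteins break down proteins, lipids and glycans in the acidic lysosome. Of 49 tested genes 13 rose and none fell, with a median of 0.20 and pair medians of 0.21, 0.26, 0.19 and 0.23. Among all 49, 33 were higher in every pair and 23 had groups that did not overlap, and 3 passed without the block. Ctsl, the protease cathepsin L, was at 131, 145, 133 and 128 CPM in KO DHT and at 177, 214, 202 and 178 CPM in KO DHT+ENZ. Every KO DHT+ENZ library was above every KO DHT library (0.51, SE 0.06; adjusted p = 0.000421, edgeR; 0.0206 without the block). The cholesterol carrier gene Npc2 rose from between 223 and 262 CPM to between 296 and 351 CPM (0.42, SE 0.06). The tetraspanin gene Cd63 (0.50, SE 0.07) rose as well. Gla, an alpha-galactosidase, had the lowest value of the list and did not pass (-0.53).

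The vacuolar proton pump acidifies the lysosome, and 8 of its 17 tested subunits and partners rose, with none lower and a median of 0.30. Of the 17, 15 were higher in all 4 pairs, and 0 passed without the block, where the median was 0.29. Atp6v0b, a subunit of the membrane ring, was at 117, 109, 108 and 105 CPM in KO DHT and at 145, 146, 149 and 131 CPM in KO DHT+ENZ, with the groups apart (0.38, SE 0.06; adjusted p = 0.00418, edgeR; 0.071 without the block). Atp6v0e (0.38), the accessory subunit gene Atp6ap1 (0.35) and Atp6v1b2 (0.30) rose by similar amounts. Among 31 genes of the TFEB family, the Rag GTPases and autophagy, 6 rose and none fell, with a median of 0.20 and 0 passing without the block. Flcn, the folliculin gene whose product controls TFE3 and TFEB through the Rag GTPases, went from 51.2, 42.1, 39.3 and 50.5 CPM to 73.8, 58.4, 51.3 and 73.4 CPM (0.48, SE 0.06; adjusted p = 0.00101, edgeR; 0.358 without the block). The autophagy genes Gabarap (0.40), Gabarapl1 (0.30) and Sqstm1 (0.26) rose, whereas Tfeb itself did not pass (-0.01; adjusted p = 0.992, edgeR).

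The palindrome CACGTG, the core of the element bound by TFEB and other basic helix-loop-helix factors, was in 15.7% of the 268 promoter entries of higher genes, 7.6% of those of lower genes and 9.4% of those of all genes tested. The upstream 200 bases of the acid glucosidase gene Gaa (chr11:119267763-119267962, plus strand) and of Atp6v0b (chr4:117887330-117887529, minus strand) are shown as 2 examples with matches, picked after the matches were seen. Both genes rose, and capitals mark CACGTG.
Gaa: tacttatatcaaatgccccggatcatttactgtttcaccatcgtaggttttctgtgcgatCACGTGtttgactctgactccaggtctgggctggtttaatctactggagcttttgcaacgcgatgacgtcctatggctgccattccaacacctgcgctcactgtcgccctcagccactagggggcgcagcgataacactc
Atp6v0b: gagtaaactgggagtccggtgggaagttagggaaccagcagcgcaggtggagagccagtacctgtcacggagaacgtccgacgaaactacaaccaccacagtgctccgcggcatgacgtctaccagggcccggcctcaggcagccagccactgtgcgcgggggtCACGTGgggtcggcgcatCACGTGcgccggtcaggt
In Gaa the match starts 140 bases before the transcription start. Atp6v0b has 2 matches, at 36 and 18 bases before it. Gaa went from between 119 and 133 CPM to between 158 and 181 CPM (0.41, SE 0.07; adjusted p = 0.00544, edgeR).

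Genes of lipid export under the liver X receptors (LXR), which sense oxidised cholesterol, rose in 6 of 18 cases. None was called lower, the median was 0.15, and 0 passed without the block. Pair medians were 0.28, 0.06, 0.10 and 0.19, with 8 members higher and 2 lower in all 4 pairs. Apoe, the lipid carrier of the brain, was at 68.9, 108, 144 and 66.7 CPM in KO DHT and at 128, 221, 218 and 128 CPM in KO DHT+ENZ. Replicates 2 and 3 were higher than 1 and 4 in both groups, so the groups overlapped, while each pair rose (0.87, SE 0.13; adjusted p = 0.00302, edgeR; 0.327 without the block). Abca1, the pump that loads cholesterol onto such carriers, went from 70.4, 141, 134 and 105 CPM to 138, 182, 188 and 182 CPM (0.65, SE 0.10; 0.268 as adjusted p without the block). The phospholipid-remodelling gene Lpcat3 (0.43) and the desaturase gene Scd2 (0.35) also rose. Of 28 cholesterol synthesis genes none rose and 1 fell, with a median of 0.14. That gene was Lbr (-0.31, SE 0.08), which encodes a sterol reductase that is also the lamin B receptor of the nuclear envelope.

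Among enzymes of hexosamine and amino-sugar metabolism 4 of 17 rose and none fell, with a median of 0.05, so the rises were those of a few members. Uap1l1, a relative of the enzyme that makes UDP-N-acetylglucosamine, was at 31.4, 25.9, 32.8 and 29.7 CPM in KO DHT and at 59.5, 65.5, 52.9 and 56.2 CPM in KO DHT+ENZ. The lowest KO DHT+ENZ library was well above the highest KO DHT library (0.98, SE 0.11; adjusted p = 0.000421, edgeR; 0.00611 without the block). Renbp, an N-acylglucosamine epimerase, went from 18.2, 19.1, 20.3 and 16.7 CPM to 34.3, 39.2, 31.4 and 28.4 CPM (0.84, SE 0.11; adjusted p = 0.00104, edgeR). The deaminase gene Gnpda1 (0.33) and the deacetylase gene Amdhd2 (0.34) rose less, and the canonical Uap1 did not pass (0.02). Of 19 circadian clock genes 3 rose, with a median of 0.11. They were the repressor genes Nr1d1 (0.48, SE 0.07) and Bhlhe40 (0.45, SE 0.07) and the output factor gene Dbp (0.46, SE 0.11). With no block, Dbp lost its call (adjusted p = 0.352, edgeR).

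**Figure D3:**
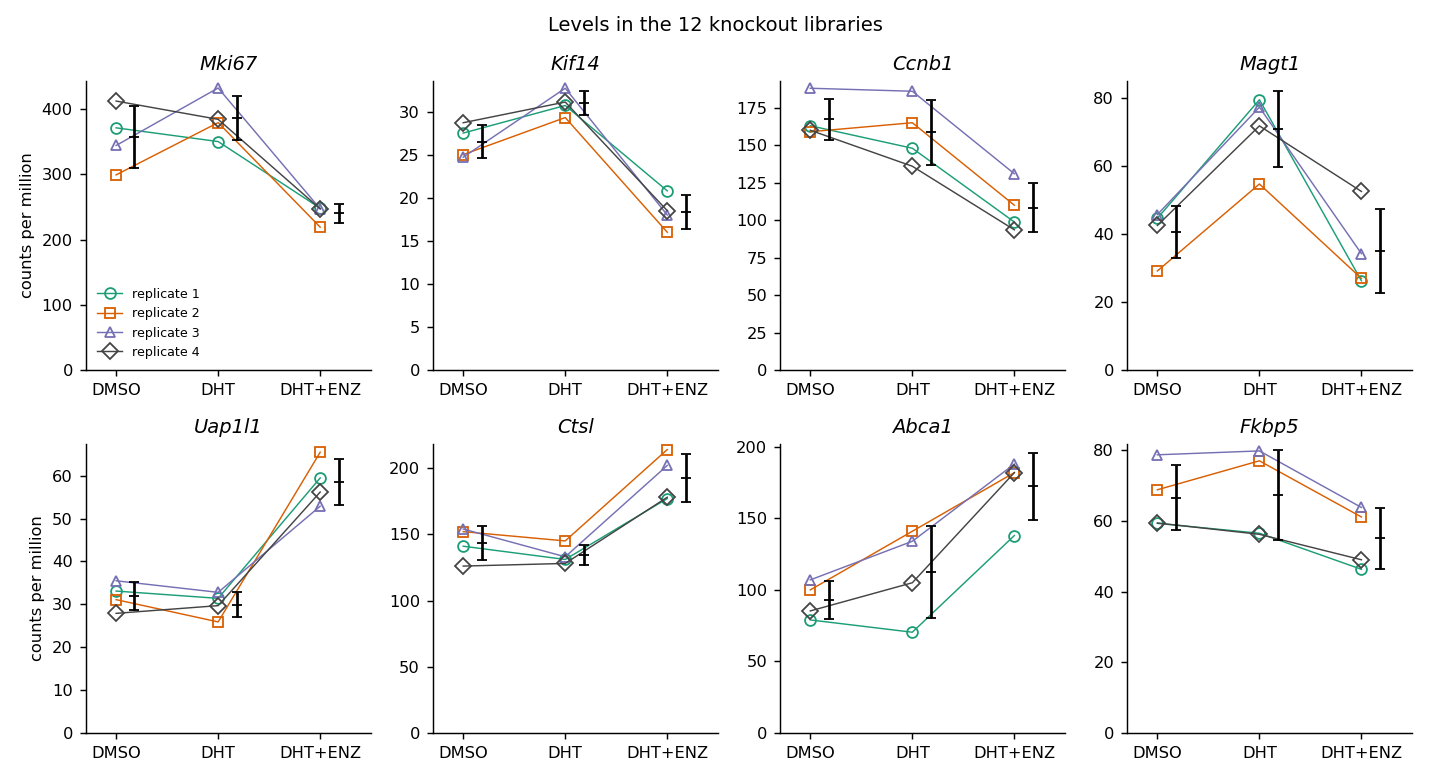
Levels of 8 genes (CPM) in the 12 knockout libraries, with lines joining the libraries of 1 replicate number and bars giving the mean and SD of each group (n = 4). Mki67, Kif14 and Ccnb1 are lowest and Uap1l1, Ctsl and Abca1 highest in DHT+ENZ on average, Magt1 is highest with DHT alone, and Fkbp5 falls in each pair although the groups overlap.

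The mitochondrial genome encodes 13 proteins of the respiratory chain. All 13 were higher in each of the 4 pairs and 10 had groups that did not overlap, yet 0 passed in edgeR, with a median of 0.56 and 10 at an unadjusted p under 0.05. Without WT DMSO replicate 1, a library with 20.2 M counts whose mitochondrial share was 1.35%, 11 of the 13 passed. For example, mt-Nd1, a complex I subunit, was at 1900, 2850, 2100 and 2550 CPM in KO DHT and at 3180, 3820, 3690 and 3080 CPM in KO DHT+ENZ. The groups did not overlap (0.57, SE 0.24; adjusted p = 0.265, edgeR). Counts assigned to mt-Tp, a mitochondrial tRNA gene, rose from between 6.17 and 9.78 CPM to at least 14.2 CPM in every KO DHT+ENZ library (0.92, SE 0.16; adjusted p = 0.00567, edgeR), although polyA libraries do not sample tRNA well. For mt-Tp the call was lost with the length correction (0.51; adjusted p = 0.348, edgeR) and without replicate 3 or 4 (adjusted p = 0.0584 and 0.054, edgeR). Of 44 nuclear-encoded respiratory chain genes 3 rose and none fell, with a median of 0.20. These were Sdhc (0.30), Cox5b (0.33) and Uqcrc2 (0.24), and none of them passed without the block. The muscle-type cytochrome oxidase subunit gene Cox6a2, outside that list, rose from between 3.30 and 5.58 CPM to between 6.77 and 8.76 CPM (0.87, SE 0.14; 0.15 as adjusted p without the block).

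Cytosolic ribosomal protein genes rose in 10 of 56 cases, with none lower and a median of 0.22, but their pair medians of 0.02, 0.38, 0.18 and 0.27 were uneven. Rpl31 (0.33), Rpl32 (0.30), Rpl17 (0.29) and Rps23 (0.28) are examples, and all 4 had overlapping groups. Short transcripts as a whole rose relative to long ones in pairs 2, 3 and 4 and fell relative to them in pair 1. Across 10923 genes the rank correlation of the log2 difference with transcript length was 0.19, -0.55, -0.29 and -0.33 for the 4 pairs in order; genes are not replicates, so this describes the libraries only. Called higher genes had a median length of 1700 bases and called lower genes of 2904, against 2403 for all genes tested. With the length trend removed from each library, 0 of the ribosomal protein genes passed and their median was 0.08, and 2 of the respiratory chain genes passed with a median of 0.08. The same 23 genes of the spindle list were called lower, with a median of -0.52, and the same 13 genes of the lysosomal list higher, with a median of 0.19. The proton pump kept 7 of its 8 calls, and its median went from 0.30 to 0.23. The TFEB, Rag GTPase and autophagy list kept 5 of 6, and its median went from 0.20 to 0.12. Of the 4 amino-sugar calls 3 were kept.

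Genes under ATF4, the transcription factor of amino acid stress, rose in 7 of 30 cases with none lower and a median of 0.27, and 23 of the 30 were higher in all 4 pairs. None passed without the block. Ddit3, the stress factor CHOP, was at 23.3, 12.6, 8.50 and 20.2 CPM in KO DHT and at 30.5, 17.6, 18.0 and 33.1 CPM in KO DHT+ENZ. Replicates 1 and 4 were higher than 2 and 3 in both groups, and the groups overlapped (0.65, SE 0.13; adjusted p = 0.0119, edgeR; 0.74 without the block). The seryl-tRNA synthetase gene Sars (0.44), the cationic amino acid transporter gene Slc7a3 (0.60) and the transcription factor gene Atf5 (0.51) rose, the first and the last with groups apart. Trib3, a pseudokinase that ATF4 and CHOP induce, did not pass (0.80; adjusted p = 0.101, edgeR). Cth, the cystathionine gamma-lyase that makes cysteine and that stands in none of the lists, rose from between 6.96 and 10.9 CPM to between 13.2 and 18.0 CPM (0.78, SE 0.20; adjusted p = 0.0467, edgeR; 0.358 without the block, 0.059 with the length correction and 0.0541 to 0.199 with any library or pair of the comparison left out). Endoplasmic reticulum chaperone genes, the mark of the unfolded protein response, had a median of 0.05 over 20 genes, with 0 called by edgeR and 1 at an unadjusted p under 0.05. Of 23 NRF2 and xenobiotic response genes 2 rose, Mgst1 (0.33) and G6pdx (0.23), with a median of 0.10. Neither passed without the block (adjusted p = 0.861 and 1.0, edgeR) or with the length correction described above (0.113 and 0.0574).

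Among 31 immediate early genes 4 rose and none fell, with a median of 0.11. The orphan receptor gene Nr4a1 was at 10.4, 6.20, 6.02 and 7.38 CPM in KO DHT and at 15.2, 8.41, 8.52 and 13.8 CPM in KO DHT+ENZ, so each pair rose although the groups overlapped (0.60, SE 0.10; adjusted p = 0.00369, edgeR; 0.53 without the block). Its relative Nr4a3 (0.62), Maff (0.43) and Klf4 (0.50) also rose. Fos, the archetype of the class, was at 2.90 to 8.81 and 2.49 to 9.59 CPM and did not pass (0.11). Other named rises were Cystm1 (0.85, SE 0.10), a small membrane protein gene, Arhgef28 (0.78, SE 0.18), a guanine nucleotide exchange factor gene, and Scg2 (0.69, SE 0.11), a granin of secretory granules. Cystm1 alone of these 3 passed without the block (adjusted p = 0.00611, edgeR). Arhgef28 hardly moved in pair 2, at 7.44 CPM in KO DHT and 7.58 CPM in KO DHT+ENZ. Its call was lost without pair 1, 3 or 4 (adjusted p = 0.059, 0.146 and 0.184, edgeR) and kept without pair 2 (0.0173).

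The direct targets of androgen and glucocorticoid receptors showed no common direction. Of 27 tested genes 1 fell and 1 rose, and the median was 0.04. Fkbp5 encodes a co-chaperone of steroid receptors and is a standard androgen and glucocorticoid target. It was at 56.5, 77.0, 79.8 and 56.2 CPM in KO DHT and at 46.3, 61.1, 63.8 and 49.0 CPM in KO DHT+ENZ. It was lower in each pair, while replicates 2 and 3 of KO DHT+ENZ lay above replicates 1 and 4 of KO DHT (-0.29, SE 0.07; adjusted p = 0.0271, edgeR; 0.728 without the block). The call was also lost in limma-voom (adjusted p = 0.0909), with no filter on low counts (0.0594) and with most libraries or pairs left out (0.0573 to 0.157; kept without KO DHT replicate 1 or 4). KO DHT did not differ detectably from KO DMSO for this gene (0.01 on the log2 scale; adjusted p = 0.981, edgeR). Zbtb16, a zinc finger transcription factor gene that the same hormones induce, was at 6.38, 6.54, 5.32 and 6 CPM in KO DHT and at 5.19, 3.42, 5.13 and 3.54 CPM in KO DHT+ENZ. All 4 KO DHT+ENZ libraries lay below the KO DHT libraries, at few counts, and the difference did not pass (-0.49, SE 0.21; adjusted p = 0.265, edgeR). It passed in the fit to the 12 knockout libraries alone (adjusted p = 0.0351, edgeR) and not in that to the 8 libraries compared (0.0582). Its KO DMSO mean was 3.83 ± 0.292 CPM (SD, n = 4). Mt1, a metallothionein gene that glucocorticoids and zinc induce, was the member that rose (0.45, SE 0.11; adjusted p = 0.0288, edgeR; 0.283 without the block and 0.0967 with the length correction).

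The full palindrome of the steroid receptor element was in 1 of the 15419 promoter entries and in none of those of the called genes, which says only that these letters are not in those windows. The upstream 200 bases of Fkbp5 (chr17:28486150-28486349, minus strand) are shown because the gene is the reference target, with CACGTG and the CCAAT box (or ATTGG) in capitals.
Fkbp5: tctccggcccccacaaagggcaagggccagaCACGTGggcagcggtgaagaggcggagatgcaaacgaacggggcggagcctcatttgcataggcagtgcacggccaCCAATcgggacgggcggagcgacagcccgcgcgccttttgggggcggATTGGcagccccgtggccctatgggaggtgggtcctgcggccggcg
The CACGTG match starts 169 bases and the 2 boxes 93 and 46 bases before the transcription start.

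Few identity genes of the cells were called. Of 20 progenitor and radial glia markers 0 passed in edgeR (4 at an unadjusted p under 0.05), with a median of -0.04. Their log2 fold changes ran from -0.66 to 0.30, with 3 higher and 4 lower in all 4 pairs. With the length correction 1 was called higher, and in the 12 knockout libraries 1 higher and 1 lower. Nes, the progenitor filament nestin, stood at 2290 to 2860 and 2180 to 2620 CPM (-0.06), and Sox2 at 199 to 220 and 182 to 242 CPM (-0.01). Of 24 Notch, BMP and Wnt targets 0 passed in edgeR (3 at an unadjusted p under 0.05), with a median of -0.04. Collagen, laminin and matrix genes had 2 of 29 lower, the fibrillar collagen genes Col5a1 (-0.36) and Col5a2 (-0.21), and 0 lower after the length correction. Of 31 synapse genes 1 fell, the kainate receptor gene Grik1 (-0.95), at 1.74 to 2.90 CPM in KO DHT and 0.90 to 1.51 CPM in KO DHT+ENZ. Neurod1, a neurogenic factor gene, was the 1 neuron marker that fell, at no more than 1.28 CPM (-1.15). Of 7 oligodendrocyte lineage markers 1 fell, the early myelination gene Bcas1 (-0.52; 0.933 as adjusted p without the block). None of Col5a1, Col5a2, Grik1, Neurod1 and Bcas1 passed without the block. Apoe, described above, was the 1 astrocyte marker that rose. Apart from Magt1, the 8 genes that changed by a fold of 2 or more had means under 2 CPM over the 8 libraries. Txnip, the thioredoxin-binding brake on glucose uptake, named after its value was seen, was at 1.40, 4.46, 2.42 and 1.27 CPM in KO DHT and at 0.381, 0.895, 0.493 and 0.590 CPM in KO DHT+ENZ (-1.92, SE 0.28; adjusted p = 0.00207, edgeR; 0.19 without the block).

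Isoform shares gave no difference that held across tests. Of 42583 transcripts in 10444 genes, 49 (0.115%) had a changed share of their gene in edgeR's splicing test, 24 higher and 25 lower, and 15 of the 49 moved the same way in all 4 pairs with counts in each pair. A further 3 had 1 sign throughout but 0 counts in both libraries of a pair. In limma on the log2 ratio of each transcript to the rest of its gene 0 passed, with a smallest adjusted p of 1, and 1767 transcripts were at an unadjusted p under 0.05. Of the 49, 46 were estimated at under 0.5 counts in at least 1 of the 8 libraries. On simulated data the splicing test called unchanged transcripts more often than its threshold allows, so its calls are given as values only. Huwe1-202, a transcript of a large ubiquitin ligase gene, was 1 of 3 called transcripts with counts in all 8 libraries and the only 1 of them that moved the same way in all 4 pairs. Its share of Huwe1 was 8.9%, 12.7%, 14.6% and 4.6% in KO DHT and 17.9%, 37.4%, 21.1% and 18.3% in KO DHT+ENZ, higher in each pair with groups apart (adjusted p = 0.00297, edgeR; adjusted p = 1, limma). The other 2, Shc1-203 and Eif4a2-201, named after their values were seen, were higher in 3 of 4 pairs, with mean shares of 18.75% and 0.73% in KO DHT and 44.98% and 3.61% in KO DHT+ENZ. Another 7 transcripts met the naming rule and were at or near 0 in at least 1 library. Grip1-205 held 3.2%, 5.9%, 10.3% and 7.4% of Grip1, a receptor scaffold gene, in KO DHT and 0% in the 4 KO DHT+ENZ libraries, from 32 to 127 counts against 0. Spire1-202, of an actin nucleator gene, had 0 counts in KO DHT and 189, 134, 282 and 2 in KO DHT+ENZ. Brca2-201 reached 32.3% in KO DHT+ENZ replicate 1 and 0.0% in replicate 4. The mean shares of Cobll1-205 went from 0.11% to 11.1%, of Neto2-203 from 6.06% to 0.07%, of Prrc2c-209 from 9.51% to 2.59% and of D630045J12Rik-201 from 0.05% to 15.9%. D630045J12Rik-201 was at 41.9% in KO DHT+ENZ replicate 2, and its counts rounded to 0 in replicate 3 of both groups. Those of Brca2-201 rounded to 0 in replicate 4 of both groups.

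The 2 main transcripts of Magt1, chosen here after their values were seen, differed in how far their counts were apart between the groups. Magt1-204 held 73.7%, 69.7%, 71.3% and 78.1% of the gene in KO DHT and 38.8%, 35.0%, 26.9% and 70.9% in KO DHT+ENZ. Its estimated counts went from 2014, 1233, 1823 and 2161 to 348, 296, 281 and 1202, while those of Magt1-201 were 708, 494, 735 and 571 and then 511, 537, 759 and 375. Magt1-204 was lower in all 4 pairs, least in replicate 4, and Magt1-201 was lower in replicates 1 and 4 and higher in replicates 2 and 3. Neither test of the share passed (adjusted p = 1 in edgeR and in limma). The share of Huwe1-201, the main transcript of Huwe1, was 83.3% to 92.0% in KO DHT and 60.4% to 79.0% in KO DHT+ENZ, lower in all 4 pairs (adjusted p = 1 in edgeR and in limma). Among other transcripts chosen after their values were seen, Uap1l1-201 held 96.3% to 98.3% of its gene in KO DHT and 94.4% to 98.0% in KO DHT+ENZ, Abca1-201 at least 99.7% in all 8 libraries, and Chd1-201 86.8% to 90.6% and 87.8% to 90.4%.

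**Figure D4:**
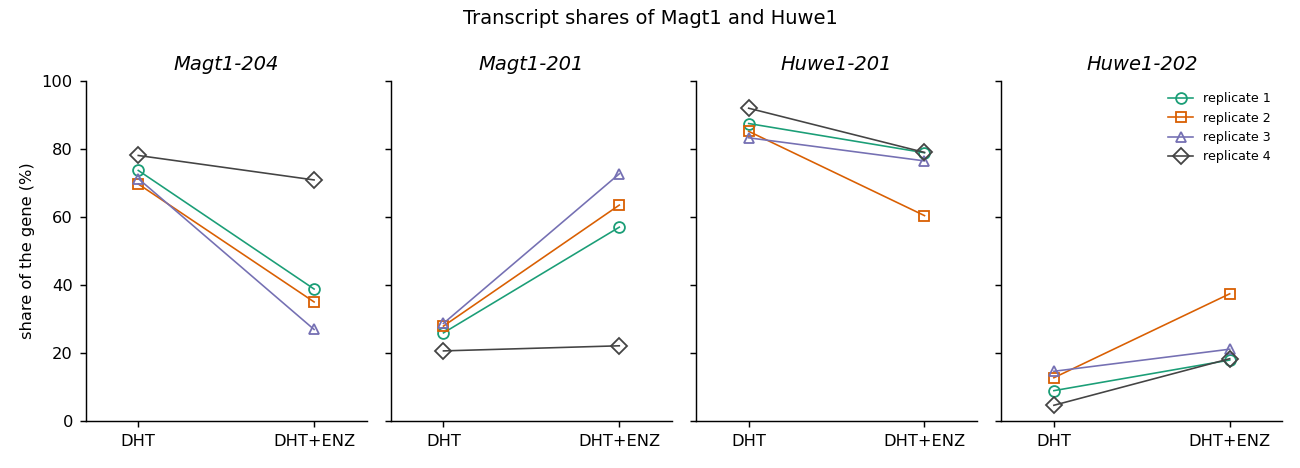
Share of the gene's estimated counts held by 2 transcripts of Magt1 and 2 of Huwe1 in KO DHT and KO DHT+ENZ, with lines joining the 2 libraries of a replicate number. Magt1-204 drops below 40% in replicates 1 to 3 and stays at 70.9% in replicate 4, and Huwe1-202 rises in each pair.

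Compared with the DMSO cultures, KO DHT+ENZ differed in 499 genes (2.94%) and KO DHT in 0, with the replicate block in edgeR (smallest adjusted p for KO DHT over KO DMSO 0.606, with 1358 genes at an unadjusted p under 0.05). The 3 comparisons share libraries, so their values are given side by side and not as independent results. The median of the spindle list was -0.52 for KO DHT+ENZ over KO DHT, -0.53 for KO DHT+ENZ over KO DMSO and 0.00 for KO DHT over KO DMSO. For the lysosomal list these medians were 0.20, 0.16 and -0.07, and for the proton pump 0.30, 0.23 and -0.06. For the ATF4 list they were 0.27, 0.25 and -0.03, and for the cytosolic ribosomal list 0.22, 0.10 and -0.12. The nuclear-encoded respiratory chain list had 0.20, 0.10 and -0.10, and the mitochondrially encoded proteins 0.56, 0.33 and -0.21. Of the 591 genes called against KO DHT, 328 were also called for KO DHT+ENZ over KO DMSO. Abca1 differed by 0.65, 0.89 and 0.24, Uap1l1 by 0.98, 0.88 and -0.09, Mki67 by -0.69, -0.57 and 0.12, and Fkbp5 by -0.29, -0.28 and 0.01.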

How the data were processed

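PolyA RNA of 16 cultures (4 groups of 4) was sequenced as paired 150 bp reads, per the labels' protocols. Reads were quantified with kallisto against GRCm39, per the submitters' processing notes; the kallisto version is not given in the sources used here. Per the file headers, the deposited tables hold estimated counts and TPM per transcript, with no normalization of the counts between libraries, and transcript lengths. The deposited TPM values were averaged over a group and not tested. Reads of near-identical genes, such as ribosomal protein genes, are divided by kallisto's model and their values are uncertain.

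Of 146190 transcripts, 135007 were matched by identifier to 49166 genes of GENCODE M21, an annotation of GRCm38 used for names only. Estimated counts were summed per gene, rounded, filtered with filterByExpr and scaled by TMM. One edgeR 4.0.16 quasi-likelihood model (R 4.3.3) of 4 groups and replicate number was fitted to the 16 libraries, with Benjamini-Hochberg adjustment over all genes and calls at 0.05 with no minimum fold. SE is the absolute log2 fold change over the square root of F. Transcript shares were tested with edgeR's diffSpliceDGE on transcripts with at least 10 counts in at least 4 libraries, and with limma 3.58.1. The design keeps the replicate number because the sample prefixes in the file names pair the cultures; same-numbered KO DHT and KO DHT+ENZ libraries correlated at 0.44, 0.58, 0.61 and 0.75 across 9747 genes after group means were removed, all above the minimum of 0.1. Differently numbered libraries ran from -0.79 to 0.78, and 2 of the 4 KO DHT+ENZ libraries correlated more with another number than with their own (replicate 1 at 0.78 with KO DHT replicate 4, and replicate 2 at 0.67 with KO DHT replicate 3). The biological coefficient of variation was 0.122 with the block and 0.212 without. The 120 pairs of libraries held no identical values. The scripts were tested on simulated data. The gene test recovered 81% of 100 genes changed 1.5-fold and 100% of 100 changed 2-fold, with 14 false calls among 16711 genes. At a 4-fold change in 200 transcripts, the splicing test recovered 41% with 122 false calls, and limma 66.5% with 3. Smaller changes were not simulated. Alternatives used DESeq2 1.42.0, limma-voom, other filters, other sets of libraries, a lowess length correction and libraries left out.

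Named genes are Chd1, Fkbp5 and Zbtb16, the 12 largest called rises and 12 largest called falls that average 5 CPM or more, share their sign over all 4 pairs and have a symbol that is not provisional, up to 4 called members per list by smallest p, and up to 10 called transcripts with a share difference of at least 5 percentage points, 1 sign over all 4 pairs and a gene mean of at least 5 CPM. Of 15 called transcripts with such a difference, 8 met the whole rule. A few genes that the rule names, and 1 list, are not reported here. Genes outside the rule are said to be chosen after their values were seen, or are given as values for their part in a list. The comparison, the 27 pathway and 7 marker lists and the rule were chosen with earlier results of these data known, so no list is independent evidence of its direction. RefSeq promoter entries (GRCm38.p6) were found for 16 of the 24 largest rises and falls.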

Additional observations from a re-analysis of the deposited data

Results flagged for a closer look

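In 5 of 178 groups of 4 libraries examined (the named genes in both treatments), 1 library stood apart from the other 3 by Dixon's criterion, which chance meets in about 1 group in 20. All 5 were KO DHT+ENZ groups. Abca1 was at 138 CPM in replicate 1, against 182 to 188 CPM in the others. Mki67 was at 219 CPM in replicate 2, against 247 to 248 CPM, and Cenpe at 41.7 CPM in the same replicate, against 51.3 to 53.2 CPM. Atp6v1b2 was at 204 CPM in replicate 3, against 215 to 216 CPM. Slc7a3 was highest in replicate 2 at 49.6 CPM, against 31.1 to 33.3 CPM.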

How the results depend on the processing

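With no replicate block 45 of the 591 genes passed (13 higher, 32 lower; 1182 at an unadjusted p under 0.05, against 2662 with the pairing), and DESeq2 gave 1041 with the block (564 higher, 477 lower) and 215 without it (94 and 121). The 8 libraries alone gave 1155 (572 and 583) and the 12 knockout libraries 1798 (975 and 823). Without WT DMSO replicate 1, an alternative added once the data had been seen, edgeR called 1480 (780 and 700), or 116 (37 and 79) with no replicate block. Leaving out libraries gave 88 to 394 genes (24 to 196 higher, 64 to 207 lower): 234, 205 and 314 without KO DHT replicates 2, 3 and 4, 363, 306, 301 and 169 without KO DHT+ENZ replicates 1 to 4, and 323, 159, 133 and 88 without pairs 1 to 4. RLE scaling (593), no filter (576), a minimum of 5 CPM (675), limma-voom (407) and the length correction (609) stayed within 1.5 times the count. Transcript share calls were 0 in limma, 4 at a minimum of 50 counts and 26 to 44 with a pair left out (26 without replicate 4). Of the 89 named genes 21 kept their call in all 24 settings, and their choice by a common sign over the pairs fixes most of their directions. The sign turned for 1 that had not passed, Chd1 (0.01 without replicate 2, with a range of -0.14 to 0.01 over left-out libraries). The cause of these shifts was not tested.

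Transcript shares passed a minimum of 10 counts in at least 4 of the 16 libraries, so values in single libraries can be at 0. With no culture given enzalutamide alone, blocking of DHT and other effects of the drug cannot be told apart, nor can the share of dividing cells and RNA per cell.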
